A study of Mus musculus with 18 samples.

Results

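Transforming growth factor beta (TGF-beta) signalling genes were followed in the mouse urinary bladder: the ligands Tgfb1, Tgfb2 and Tgfb3, the receptors Tgfbr1, Tgfbr2 and Tgfbr3, and the latent TGF-beta binding proteins Ltbp1, Ltbp2, Ltbp3 and Ltbp4. The 10 genes were chosen by family and not by a measured value, although earlier results of these data were known. All 10 are among the 26324 gene symbols common to every table, with mitochondrially encoded genes left out. All bladders came from C57BL/6 mice, an inbred strain, and the labels name no transgene and no treatment. Whole-bladder cells were profiled in droplets from males of 22 months and males of 3 months (3 males each) and from mixed groups (2 females and 2 males) of 12 months, with 2 libraries, and of 24 months. Single nuclei came from a 12-month mixed group, cells of the detrusor (the muscular layer of the wall) alone from 3 females of 14 months, and detrusor-enriched cells of whole bladder from a 14-month mixed group. Frozen sections of male bladder were captured on spatial arrays at 14 and at 22 months, with 2 sections per age. Bulk RNA of 12-month females was sequenced in 3 libraries of intact and 3 libraries of dissociated bladder, each labelled with 3 females. Numbers such as 3 females can be read as a pool or as the size of a group, and nothing says that replicates came from separate animals, so p-values measure the spread between these samples, which may be technical. Both 12-month whole-bladder libraries may hold cells of the same animals.

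TGF-beta ligands are secreted in a latent complex with their own propeptide, which covalently joins a latent TGF-beta binding protein that anchors it to fibrillin and fibronectin in the matrix. Released ligand binds the type II receptor Tgfbr2, which phosphorylates the type I receptor Tgfbr1, and this in turn activates Smad2 and Smad3. Tgfbr3 (betaglycan) is a co-receptor that presents ligand, above all the Tgfb2 ligand, to the signalling pair. In the bladder, as in other hollow organs, the pathway is known for its effects on matrix production by fibroblasts and smooth muscle.

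Levels are given as CPM, the UMIs or reads of a gene scaled to the total of the library, cell class or set of spots, so they are relative levels. Totals of cell classes counted only genes common to the droplet tables, without mitochondrially encoded genes. Totals of the fibroblast cluster sets described below were not limited in this way, so the same UMIs give a somewhat lower CPM there. The 8 droplet libraries held 5197910 to 55374101 UMIs and the bulk libraries 23083752 to 68760791 reads. The sections held 21975462 to 32020077 UMIs in 937 to 1317 spots. Clusters of cells were named from marker lists, and the 10 genes and their pathway genes had no part in the clustering. The 2 male libraries were shallow (median 1823 and 2486 UMIs per cell) and the mixed whole-bladder libraries deep (10368 to 15758), so sex mix and depth cannot be told apart among them. In the 16 pairs of libraries compared, at most 55 cell barcodes were shared (0.909% of the smaller library). Fibroblast-like and urothelial-like cells passed 50 cells in all 5 whole-bladder libraries, with 142 to 4516 and 676 to 2096 cells. Macrophage-like cells passed it in 3 (422, 365 and 60 cells). Few cells of whole-bladder suspensions were named smooth-muscle-like (20, in the 24-month library). More were named so among nuclei (1392), detrusor-only cells (430) and detrusor-enriched cells (182). Any muscle cells in unnamed clusters are not counted. No cluster of the detrusor-only library was named urothelial-like.

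The upstream sequences of 4 genes are shown because the results turn on them: Tgfb1 and Tgfb2 differed in opposite directions between cell classes, and Ltbp1 and Ltbp3 had the greatest and the smallest muscle-to-urothelium difference of the binding proteins. They come from RefSeq (GRCm38.p6), which had windows for 8 of the 10 genes (12 windows). Each is the stretch of the 250 bases before a transcript start that lies outside the gene's annotated span, except for Tgfb2, whose window lies inside it and for which 30 bases around the TATA box are shown. The motifs searched on both strands were AP-1 (TGANTCA), CRE (TGACGTCA), the GC box (GGGCGG) and the TATA box (TATAAA). Capitals mark the matches, and no match here overlaps another motif. They occur in 6.75%, 1.55%, 32.7% and 12.4% of the 32851 mouse promoter windows of the same length.
Tgfb1, chr7:25686752-25687001, + strand: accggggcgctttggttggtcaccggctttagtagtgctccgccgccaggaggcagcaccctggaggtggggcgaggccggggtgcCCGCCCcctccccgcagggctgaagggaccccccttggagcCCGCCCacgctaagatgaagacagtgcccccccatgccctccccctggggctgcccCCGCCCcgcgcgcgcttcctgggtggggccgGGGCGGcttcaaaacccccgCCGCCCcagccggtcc
Tgfb2, chr1:186706003-186706032, - strand: ttggggagcacaTATAAAactctgctccgg
Ltbp1, chr17:75005279-75005479, + strand: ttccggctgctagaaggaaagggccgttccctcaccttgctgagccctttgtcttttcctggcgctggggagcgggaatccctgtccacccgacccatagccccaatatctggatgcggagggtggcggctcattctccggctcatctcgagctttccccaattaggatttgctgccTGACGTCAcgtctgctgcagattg
Ltbp3, chr19:5740650-5740899, + strand: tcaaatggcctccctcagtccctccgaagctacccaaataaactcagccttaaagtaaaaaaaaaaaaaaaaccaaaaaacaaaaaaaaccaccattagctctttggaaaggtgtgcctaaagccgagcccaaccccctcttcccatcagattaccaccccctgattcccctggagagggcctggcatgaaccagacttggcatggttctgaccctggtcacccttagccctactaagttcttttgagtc
The Tgfb1 stretch was 75.2% GC with 5 GC boxes, the Ltbp1 stretch 58.7% GC with 1 CRE, and the Ltbp3 stretch 47.2% GC with no match. Another Ltbp1 window, inside the gene's span and not shown, was 50.8% GC with no match. The Tgfb2 stretch held 1 TATA box. These matches are a description of letters, not of binding.

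Against urothelial-like cells, fibroblast-like cells had the higher levels of the genes tested, with Tgfb1 as the exception. Of the 9 genes tested, all 9 differed between fibroblast-like and urothelial-like cells of whole bladder, 8 higher and 1 lower in fibroblast-like cells (edgeR quasi-likelihood test with library as a block, two-sided, Benjamini-Hochberg adjusted p under 0.05). Of all 12856 genes tested, 64% passed (29.5% higher, 34.6% lower). The median log2 fold change was 2.75 over the 9 genes and -0.11 over all genes. Ltbp2 was too low to be tested. Values below are given for the 3-month, the first and second 12-month, the 22-month and the 24-month library in turn.

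Tgfb2, the ligand for which betaglycan matters most, was at 60.6, 41.3, 41.0, 40.7 and 50.3 CPM in fibroblast-like cells. In urothelial-like cells it was at 1.12, 0.162, 0.227, 1.71 and 0.993 CPM, from 3 to 25 UMIs per library. The groups lay far apart in each library, and the difference was 5.71 ± 0.33 on the log2 scale (SE, adjusted p = 8.28e-09). Tgfb3, the third ligand, was at 46.2, 30.6, 28.8, 54.8 and 34.2 CPM in fibroblast-like cells against 0.0757 to 2.14 CPM in urothelial-like cells, a difference of 5.404 ± 0.30 (adjusted p = 3.25e-09). RNA from broken fibroblasts can enter other droplets. The fibroblast marker list stood in urothelial-like cells at 1.56% to 5.07% of its level in fibroblast-like cells, and Tgfb2 and Tgfb3 at 0.394% to 4.19% and 0.263% to 3.90%. Both were at or below the list's share in each of the 5 libraries, and the part of free RNA in these low urothelial-like levels was not tested.

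Tgfb1, the ligand best known from immune cells and platelets, ran the other way. It was at 100.2, 59.1, 68.8, 51.6 and 70.0 CPM in fibroblast-like cells and at 125, 102, 92.2, 124 and 87.5 CPM in urothelial-like cells. The ranges over libraries overlapped, but the urothelial-like value was the higher in each of the 5 libraries. The difference was -1.002 ± 0.16 (adjusted p = 6.19e-05). In the detrusor-enriched library, which did not enter that test, the order was reversed, with 76.9 CPM in fibroblast-like and 66.1 CPM in urothelial-like cells. The order also depended on the fibroblast cluster. Clusters led by Car3 or Rbp4, described below, were at 140, 85.4, 128, 134 and 104 CPM in the 5 whole-bladder libraries. These lay above the urothelial-like value except in the first 12-month library. Clusters led by Pi16, Clec3b or Scara5 were at 29.1 to 48.6 CPM. The Car3 cluster of the 22-month library was not in the fibroblast-like class.

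The receptors were all higher in fibroblast-like cells. Tgfbr3 was at 77.7, 80.0, 99.8, 74.2 and 81.5 CPM there and at 12.55, 6.69, 3.71, 13.9 and 8.26 CPM in urothelial-like cells, with no overlap (difference 2.91 ± 0.22, adjusted p = 7.07e-08). Tgfbr1 was at 38.8, 89.7, 124, 31.7 and 90.4 CPM against 11.7 to 15.4 CPM (1.99 ± 0.23, adjusted p = 5.49e-06). The 3 mixed libraries were the high ones in fibroblast-like cells and the 2 male libraries the low ones. Tgfbr2 also had the 3 mixed libraries above the 2 male libraries, at 65.0, 127, 151, 76.6 and 118 CPM against 19.1 to 34.0 CPM (1.595 ± 0.18, adjusted p = 2.67e-06). The part of sex mix, depth or gene table in that split was not tested.

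Among the binding proteins, Ltbp4 was at 289, 447, 601, 484 and 396 CPM in fibroblast-like cells and at 12.3 to 56.6 CPM in urothelial-like cells (3.48 ± 0.37, adjusted p = 5.79e-05). Ltbp1 was at 9.74, 14.0, 31.1, 15.5 and 20.2 CPM against 1.29 to 3.14 CPM (2.75 ± 0.31, adjusted p = 2.78e-06). Ltbp3 differed least, at 42.3, 44.2, 58.8, 52.6 and 48.0 CPM against 36.5, 20.8, 24.2, 37.4 and 25.7 CPM (0.39 ± 0.15, adjusted p = 0.0292). The 2 sets for Ltbp3 did not overlap, but the call was lost without the first or the second 12-month library (adjusted p = 0.0764 and 0.0885). Ltbp2, a binding protein of elastic fibres that does not bind latent TGF-beta itself, was at 1.01 to 5.54 CPM in fibroblast-like cells and at most 0.0794 CPM in urothelial-like cells.

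**Figure D1:**
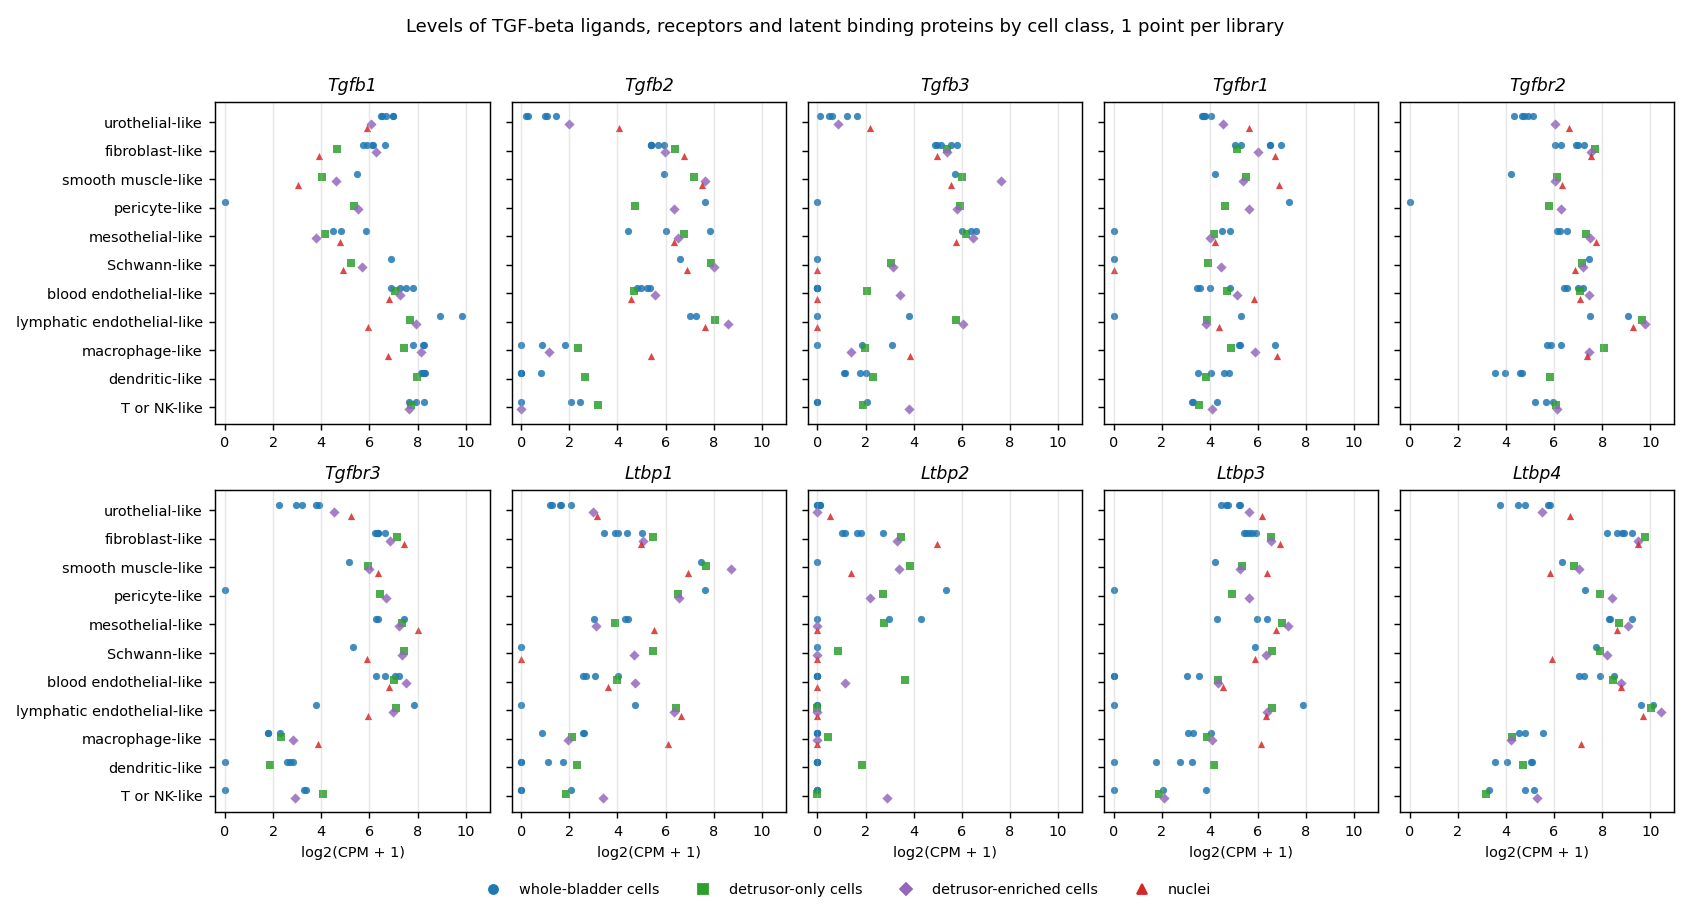
Levels of the 10 genes as log2(CPM + 1) on the horizontal axis, with cell classes on the vertical axis. Each point is 1 library and class of at least 20 cells, with colours for whole-bladder, detrusor-only, detrusor-enriched and nuclei libraries. In whole-bladder libraries the Tgfb2 and Tgfb3 points of urothelial-like cells lie at or under 2.14 CPM while those of fibroblast-like cells lie between 28.8 and 60.6 CPM, and Tgfb1 is high in immune and lymphatic classes.

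The other listed genes of the pathway also leaned to fibroblast-like cells. Of 32 listed genes 31 were tested, and 20 were higher, 5 lower and 6 did not pass, beside 64% of all genes that passed. All 8 TGF-beta-responsive genes were higher, among them the collagen genes Col1a1 (6.62 ± 0.84), Col1a2 (6.47 ± 0.89) and Col3a1 (5.96 ± 0.56), the matricellular genes Ctgf (6.49 ± 0.63) and Postn (5.64 ± 0.50). The 3 collagen genes are also markers by which fibroblast clusters were named, so their direction is given by the naming. Fbn1, the fibrillin to which binding proteins anchor, was higher by 5.602 ± 0.36. Adjusted p-values of these 6 ranged from 3.41e-07 (Fbn1) to 0.000522 (Col1a2). Itgb6, which encodes the beta subunit of an epithelial integrin that releases active ligand, was at 13.4 to 16.2 CPM in urothelial-like cells and at most 2.81 CPM in fibroblast-like cells. Its level, like that of Lrrc32 given with the endothelial classes, was chosen for mention after values were seen.

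Tgfb1 was the 1 gene of the family that was higher in macrophage-like than in fibroblast-like cells. In macrophage-like cells Tgfb1 was at 298 CPM in the 3-month, 309.6 CPM in the 22-month and 222 CPM in the 24-month library, above fibroblast-like cells in each. The difference from fibroblast-like cells was 2.53 ± 0.19 (edgeR, adjusted p = 1.55e-07), and it had the same direction in all 6 libraries with both classes. Of the 9 genes tested, 7 differed between macrophage-like and fibroblast-like cells, 1 higher and 6 lower, against 40% of all genes (18.1% higher, 21.8% lower). The median was -1.82 over the 9 genes and -0.15 over all. This comparison shares its fibroblast-like samples with the one above.

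The 6 lower genes were Tgfb2 (-4.84 ± 0.69), Tgfbr3 (-4.35 ± 0.49), Ltbp4 (-3.40 ± 0.53), Tgfb3 (-3.01 ± 0.48), Ltbp1 (-1.82 ± 0.64) and Ltbp3 (-1.56 ± 0.27), with adjusted p-values from 1e-05 to 0.0349. Tgfb2 was at 2.57, 0.83 and 0 CPM in macrophage-like cells, or 0% to 4.24% of the fibroblast-like level, beside 1.46% to 5.75% for the fibroblast list. The signalling receptors did not pass. Tgfbr1 was at 36.0, 37.4 and 105 CPM in macrophage-like cells (0.45 ± 0.31, adjusted p = 0.276), and Tgfbr2 at 51.4, 76.4 and 57.4 CPM (-0.02 ± 0.25, adjusted p = 0.965). Ltbp1 lost its call when fibroblast clusters left unnamed were added to the class (-1.66, adjusted p = 0.0683) or without the first 12-month library (-1.79, adjusted p = 0.0666).

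Of the 31 pathway genes tested in macrophage-like against fibroblast-like cells, 4 were higher, 16 lower and 11 did not pass, beside 40% of all genes that passed. Nrros, which tethers latent TGF-beta to the surface of myeloid cells, had the greatest difference among the named pathway genes (7.14 ± 0.28, adjusted p = 1.38e-10). It was at 167 to 307 CPM in macrophage-like and 152 to 305 CPM in dendritic-like cells, and at 0.425 to 3.44 CPM in fibroblast-like cells. The other named genes were lower: Col1a1 (-5.64 ± 1.06), Col1a2 (-5.48 ± 1.12), Col3a1 (-4.86 ± 0.71), Postn (-4.43 ± 0.95) and Ctgf (-4.40 ± 1.56). Their adjusted p-values ranged from 0.00136 to 0.0478. The collagen genes among them, which count in the 16 lower, are markers that named fibroblast clusters, so their direction is given by the naming.

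The order of classes was described over whole-bladder libraries, for classes with a level in at least 2 of them and with no test. For Tgfb1 it ran from lymphatic-endothelial-like (mean 710.0 CPM, SD 309.8, n = 2) through dendritic-like (302 ± 13.2, n = 4), macrophage-like (277 ± 47.5, n = 3), T- or NK-like (249.8 ± 55.6, n = 3), blood-endothelial-like (169 ± 43.5, n = 4), urothelial-like (106 ± 17.7, n = 5) and fibroblast-like cells (69.9 ± 18.5, n = 5) to mesothelial-like cells (35.1 ± 18.9, n = 3). Only the step from lymphatic to dendritic cells had ranges that did not overlap. The lymphatic level rests on 24 and 38 UMIs of 30 and 51 cells, with exact Poisson 95% intervals of 595 to 1382 CPM and 347 to 674 CPM that cover counting error only. In the deeper detrusor-only and detrusor-enriched libraries lymphatic-like cells stood at 205 and 245 CPM, still 3.19-fold or more above fibroblast-like cells of the same library.

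Lymphatic-endothelial-like cells stood above fibroblast-like cells of the same library in 5 of 5 libraries for 4 of the genes. These were Tgfb1 (3.19- to 9.52-fold), Tgfb2 (1.86- to 6.15-fold), Tgfbr2 (2.36- to 8.34-fold) and Ltbp4 (1.14- to 2.68-fold). Tgfbr2 was at 542 and 181 CPM in the 3-month and 22-month libraries, 812 and 883 CPM in the detrusor-only and detrusor-enriched libraries and 618 CPM in nuclei. Ltbp4 was at 774, 1098, 1044, 1389 and 817 CPM in the same order. These 5 libraries held 30 to 116 lymphatic-like cells each, only 2 of them were whole-bladder cell libraries, and no test was made.

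Tgfb3 had another order, led by mesothelial-like cells (80.1 ± 15.1 CPM, n = 3) above fibroblast-like cells (38.9 ± 11.2, n = 5), and their ranges did not overlap. The mesothelial-like levels rest on few UMIs, and those ranges do not include counting error. Mesothelial-like cells, the lining of the outer surface, exceeded fibroblast-like cells in 6 of 6 libraries (1.49- to 2.10-fold). Blood-endothelial-like cells had 0 Tgfb3 UMIs in all 4 whole-bladder libraries, where 3 counts would correspond to 10.95 to 22.6 CPM, so a level below that was not detectable at this depth. In detrusor-only and detrusor-enriched blood-endothelial-like cells Tgfb3 was at 3.14 and 9.81 CPM. For Tgfb2 the order began with lymphatic-like (142 ± 18.1, n = 2), mesothelial-like (104 ± 109, n = 3) and fibroblast-like cells (46.8 ± 8.71, n = 5). The blood-endothelial-like level (33.4 ± 5.76, n = 4) lay narrowly below the fibroblast range (highest 39.8 against lowest 40.7 CPM). It lay above the remaining classes of this order, which were at or under 4.49 CPM. Smooth-muscle-like cells, described below, are not in this order. Schwann-like cells also carried Tgfb2, at 239 and 255 CPM in the detrusor-only and detrusor-enriched libraries and 117 CPM in nuclei (4 UMIs).

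The receptors differed in their order of classes. Tgfbr2 ran from lymphatic-like (361 ± 255 CPM, n = 2) through blood-endothelial-like (113 ± 29.1, n = 4), fibroblast-like (107.6 ± 35.8, n = 5), mesothelial-like (78.8 ± 12.7, n = 3), macrophage-like (61.7 ± 13.1, n = 3) and T- or NK-like cells (49.0 ± 12.6, n = 3) to urothelial-like (26.6 ± 5.58, n = 5) and dendritic-like cells (18.2 ± 6.81, n = 4). Its ranges did not overlap after lymphatic-like and after T- or NK-like cells. Tgfbr3 was at overlapping levels in lymphatic-like (123 ± 155 CPM, n = 2, at 12.9 and 232 CPM), blood-endothelial-like (115 ± 33.6 CPM, n = 4), mesothelial-like (109.5 ± 53.6, n = 3) and fibroblast-like cells (82.6 ± 9.98, n = 5), followed by a gap to urothelial-like cells (9.02 ± 4.19, n = 5). Tgfbr1 was highest in fibroblast-like (75.0 ± 38.9, n = 5) and macrophage-like cells (59.4 ± 39.3, n = 3), and neighbours in its order overlapped throughout. Ltbp4 was at 936 ± 229 CPM in lymphatic-like cells (n = 2), 444 ± 115 in fibroblast-like (n = 5), 412 ± 163 in mesothelial-like (n = 3) and 218 ± 102 in blood-endothelial-like cells (n = 4). A gap followed before urothelial-like cells (33.9 ± 19.7, n = 5). Lrrc32, which tethers latent ligand on endothelial and regulatory T cells, was at 94.5 to 241 CPM in blood-endothelial-like and 23.4 to 52.3 CPM in fibroblast-like cells.

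Smooth-muscle-like cells set Ltbp1 apart from the other binding proteins. Ltbp1 was at 174 CPM in the 24-month whole-bladder library (20 UMIs), 206 CPM in the detrusor-only, 422 CPM in the detrusor-enriched and 122 CPM in the nuclei library. This was 4.03- to 12.9-fold above fibroblast-like cells, in 4 of 4 libraries. Tgfb2 was at 61.0, 142, 197 and 184 CPM in the same order (1.21- to 3.17-fold above fibroblast-like cells) and Tgfb3 at 52.3, 62.5, 199 and 46.3 CPM (1.52- to 4.85-fold). Lower in smooth-muscle-like cells in 4 of 4 libraries were Tgfb1, Tgfbr2, Tgfbr3, Ltbp3 and Ltbp4. Ltbp4 was at 78.4, 114, 129 and 56.3 CPM, 0.0787- to 0.198-fold of the fibroblast-like level. The libraries differ in preparation, so these are ratios within a library and no test was made. Pericyte-like cells, the contractile cells of small vessels, also exceeded fibroblast-like cells for Ltbp1 in 3 of 3 libraries, at 196, 89.7 and 94.5 CPM.

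Fibroblast-like cells were not uniform. In 6 libraries, clusters led by Car3 or Rbp4 could be set beside clusters led by Pi16, Clec3b or Scara5, genes of adventitial fibroblasts. The sets were chosen after the clusters had been seen, so their values are a description. They do not take in all fibroblast-like cells of every library, and clusters in neither set are not shown. Tgfb1 was higher in the Car3 or Rbp4 clusters in 6 of 6 libraries, at 85.4 to 140.3 CPM against 26.1 to 48.6 CPM, with no overlap. Tgfbr1 (30.1 to 224 against 17.0 to 65.3 CPM) and Ltbp3 (41.6 to 86.0 against 23.5 to 61.6 CPM) were also higher there in 6 of 6.

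Ltbp1 went the other way, at 1.69 to 11.02 CPM in the Car3 or Rbp4 clusters and 11.4 to 40.4 CPM in the Pi16, Clec3b or Scara5 clusters, again with no overlap. Ltbp4, Tgfbr2 and Tgfbr3 were lower in the Car3 or Rbp4 clusters in 6 of 6 libraries and Tgfb2 in 5 of 6. Tgfb3 and Ltbp2 were split 3 to 3. The Car3 cluster of the 22-month library (1262 cells) stayed unnamed under the naming rules and is not in the fibroblast-like class above. The nuclei and the detrusor-only library held only the Pi16, Clec3b or Scara5 set (407 nuclei and 1085 cells), with Tgfb1 at 13.5 and 22.7 CPM.

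**Figure D2:**
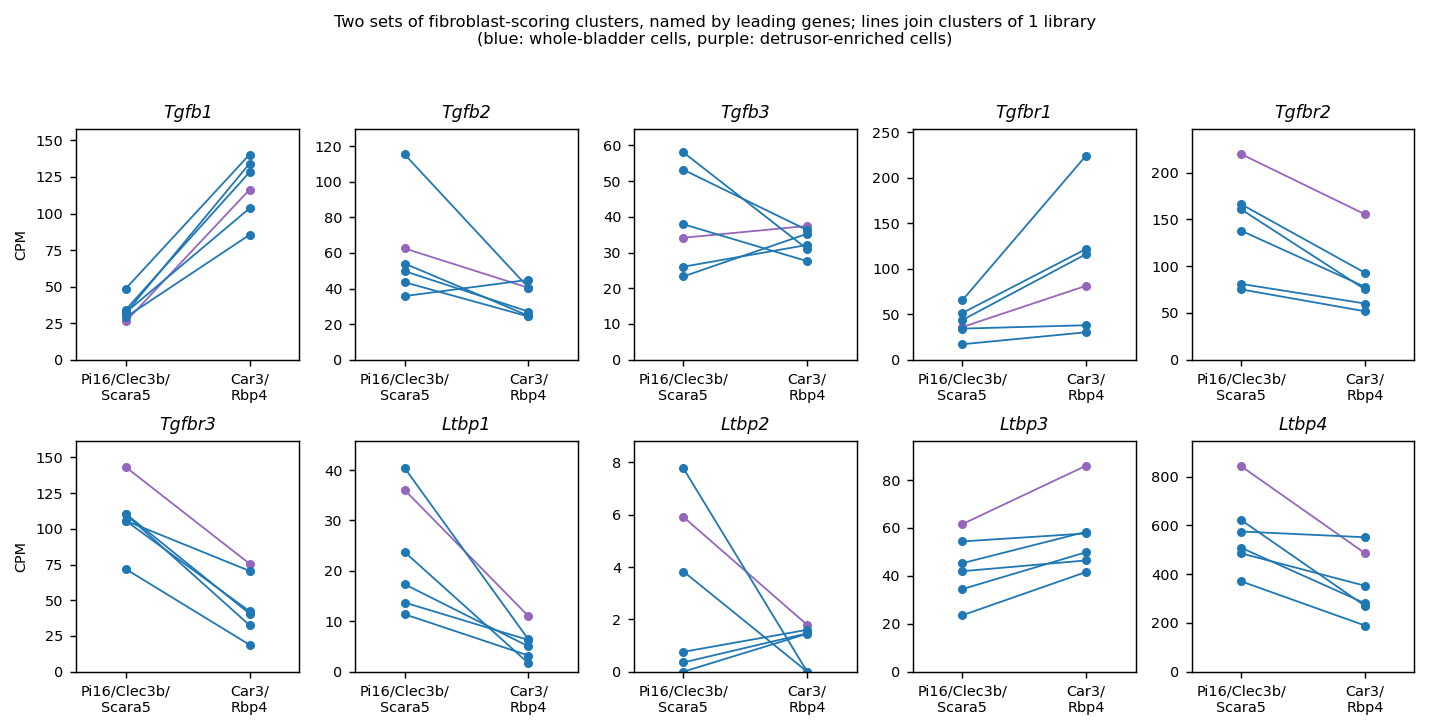
CPM of each gene in fibroblast clusters led by Pi16, Clec3b or Scara5 and in clusters led by Car3 or Rbp4, with a line joining the clusters of 1 library. Every line of Tgfb1, Tgfbr1 and Ltbp3 climbs toward the Car3 or Rbp4 clusters and every line of Ltbp1, Ltbp4, Tgfbr2 and Tgfbr3 drops.

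In the 1 nuclei library Tgfb1 was lower than in the whole-bladder cell libraries in both classes compared. The test takes its spread from the cell libraries, so its p-values say nothing of the spread between nuclei preparations. In fibroblast-like nuclei Tgfb1 was at 14.0 CPM (6 UMIs, exact Poisson 95% interval 5.13 to 30.4), below all 5 whole-bladder cell libraries (51.6 to 100.2 CPM), a difference of -3.19 ± 0.54 (edgeR, adjusted p = 0.01). In urothelial-like nuclei it was at 59.0 CPM (134 UMIs) against 87.5 to 125 CPM in cells (-2.01 ± 0.26, adjusted p = 0.00249). The latter was not called when counts were scaled by library size only (-0.84, adjusted p = 0.0927). The fibroblast nuclei all belong to the Pi16, Clec3b or Scara5 set, in which Tgfb1 was at 29.1 to 48.6 CPM in whole-bladder cells, 26.1 CPM in detrusor-enriched cells and 22.7 CPM in detrusor-only cells. The part of cluster makeup in the fibroblast difference was not tested. Beside it, the 30 dissociation-response genes, immediate-early and stress genes, summed to 34913 to 38765 CPM in fibroblast-like cells and 3159 CPM in nuclei, and their part was not tested.

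Of the 10 genes tested in fibroblast-like nuclei 2 passed, 1 higher and 1 lower, against 23.3% of all genes (8.31% higher, 15% lower). The second was Ltbp2, at 30.3 CPM (13 UMIs) against 1.01 to 5.54 CPM in cells (2.95 ± 0.90, adjusted p = 0.0481). It was lost without the 3-month, the first 12-month, the 22-month or the 24-month library (adjusted p = 0.0578 to 0.0788). Tgfb2 was at 107 CPM in nuclei against 40.7 to 60.6 CPM in cells, Tgfbr3 at 170.1 against 74.2 to 99.8 CPM, and neither passed (0.32 ± 0.34 and 0.15 ± 0.37). With scaling by library size only 5 of the 10 passed, and the median of all genes moved from -0.31 to 0.56.

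Of the 9 genes tested in urothelial-like nuclei 2 passed, 1 higher and 1 lower, against 35.3% of all genes (16.1% higher, 19.2% lower). Tgfb2 was at 15.8 CPM (36 UMIs) in nuclei against 0.162 to 1.71 CPM in cells (3.26 ± 0.86, adjusted p = 0.0263), and it was lost with doublets kept (3.00, adjusted p = 0.0604). Tgfb2 in urothelial-like nuclei was 8.63% of its level in smooth-muscle-like nuclei, while the smooth muscle list stood at 10.0%, and the part of free RNA in this level was not tested. In fibroblast-like nuclei the smooth muscle list stood at 24.96% of its level in smooth-muscle-like nuclei.

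Pathway genes behaved unevenly between nuclei and cells. In fibroblast-like nuclei 1 of 31 was higher (Smurf1, 1.53 ± 0.43) and 5 lower, among them Bambi, a decoy receptor (-3.79 ± 0.55), Timp1 (-3.47 ± 0.68), Tgfbi (-3.33 ± 0.56), Col1a1 (-2.001 ± 0.58) and the corepressor Tgif1 (-1.94 ± 0.47). The other 25 did not pass, and over all genes 23.3% passed. In urothelial-like nuclei 4 of 31 were higher and 3 lower, beside 35.3% of all genes that passed. Smad7, the feedback inhibitor, was higher by 1.49 ± 0.31, Smad4, the shared Smad partner, by 1.35 ± 0.43 and the ubiquitin ligase gene Smurf2 by 0.98 ± 0.31. Bambi (-3.48 ± 0.80) and Tgif1 (-2.53 ± 0.38) were among the lower genes. Adjusted p-values of the named genes ranged from 0.00389 to 0.0495 (edgeR).

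Sections of intact bladder placed the genes in the wall. Spots were grouped by the top 25% of each section in the share of a smooth muscle, a urothelial or a collagen list, and a spot in more than 1 set was left out. Each set held 158 to 297 spots per section. A spot covers several cells, so a level belongs to a small region. Spots rich in urothelium had a median of 32722 to 55273 UMIs and spots rich in muscle 11454 to 15652.

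All 10 genes differed between muscle-rich and urothelium-rich spots, 9 higher and 1 lower in muscle-rich spots, against 72% of all genes (37.3% higher, 34.7% lower). The median log2 fold change was 1.66 over the 10 genes and 0.00 over all (edgeR, section as a block). Values below are for 2 sections of 14 months and 2 of 22 months in turn. Ltbp1 was at 131, 145, 98.5 and 111 CPM in muscle-rich spots and at 18.6, 11.48, 11.2 and 11.001 CPM in urothelium-rich spots (3.44 ± 0.20, adjusted p = 2.04e-08). Tgfb2 was at 51.3, 35.5, 36.0 and 58.7 CPM against 6.67, 2.89, 8.61 and 5.13 CPM (3.13 ± 0.22, adjusted p = 4.38e-08). Tgfb3 was at 98.2, 37.4, 41.9 and 115 CPM against 11.1, 4.38, 9.70 and 10.5 CPM (3.16 ± 0.23, adjusted p = 1.43e-07). The muscle values of Tgfb3 fell into a high and a low pair, with 1 section of each age in each.

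The receptors followed with smaller differences: Tgfbr3 by 1.95 ± 0.15, Tgfbr1 by 1.30 ± 0.11 and Tgfbr2 by 0.87 ± 0.10, with adjusted p-values of 1.14e-07, 3.14e-08 and 1.31e-06. Tgfbr3 was at 114, 141, 91.2 and 79.5 CPM in muscle-rich and 24.3 to 36.6 CPM in urothelium-rich spots. Ltbp2 (2.58 ± 0.30), Ltbp4 (1.37 ± 0.08) and Ltbp3 (0.69 ± 0.10) were also higher in muscle-rich spots. Tgfb1 was lower there, at 43.0, 43.6, 29.4 and 39.4 CPM against 82.3, 77.1, 41.6 and 41.9 CPM (-0.40 ± 0.15, adjusted p = 0.0295). The 2 sections of 14 months carried most of that gap, and without the second of them the call was lost (-0.37, adjusted p = 0.112).

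Tgfb1 and Ltbp4 were higher in collagen-rich than in muscle-rich spots. Of the 10 genes 6 differed, 2 higher and 4 lower in collagen-rich spots, against 37.9% of all genes (18.8% higher, 19.1% lower). The median was -0.22 over the 10 genes and 0.01 over all. Tgfb1 was at 63.8, 97.1, 61.5 and 75.6 CPM in collagen-rich spots, above the muscle-rich spots of every section (0.73 ± 0.16, adjusted p = 0.00291). Ltbp4 was at 812, 878, 978 and 1103 CPM against 530.5, 543, 616 and 681 CPM, with no overlap (0.45 ± 0.08, adjusted p = 0.000543). This comparison shares its muscle-rich spots with the one above. The urothelial list summed to 9181 to 14162 CPM in collagen-rich and 3876 to 7014 CPM in muscle-rich spots, and the muscle list to 18522 to 33251 CPM and 54633 to 91225 CPM. The part of this mixture of layers in the spot differences was not tested.

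Tgfb2 was lower in collagen-rich than in muscle-rich spots, at 21.5, 16.8, 20.2 and 19.2 CPM, with no overlap (-1.44 ± 0.22, adjusted p = 0.000366). Ltbp1 was at 118, 83.5, 52.4 and 39.8 CPM (-1.02 ± 0.19, adjusted p = 0.00145), and Tgfb3 at 51.5, 35.8, 45.7 and 49.9 CPM (-0.80 ± 0.22, adjusted p = 0.0137). Tgfbr1 differed by -0.43 ± 0.11 (adjusted p = 0.00779). Tgfb3 went the other way in the first 22-month section, at 45.7 CPM in collagen-rich against 41.9 CPM in muscle-rich spots. In the second 14-month section it was close in both (35.8 against 37.4 CPM). The Tgfb3 call was lost without the first 14-month or the second 22-month section (-0.68 and -0.49, adjusted p = 0.0864 and 0.119). The Tgfbr1 call was lost without the second 14-month or either 22-month section (adjusted p = 0.0501 to 0.0618). Tgfbr2 (adjusted p = 0.41), Tgfbr3 (0.217), Ltbp2 (0.623) and Ltbp3 (0.881) did not pass.

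**Figure D3:**
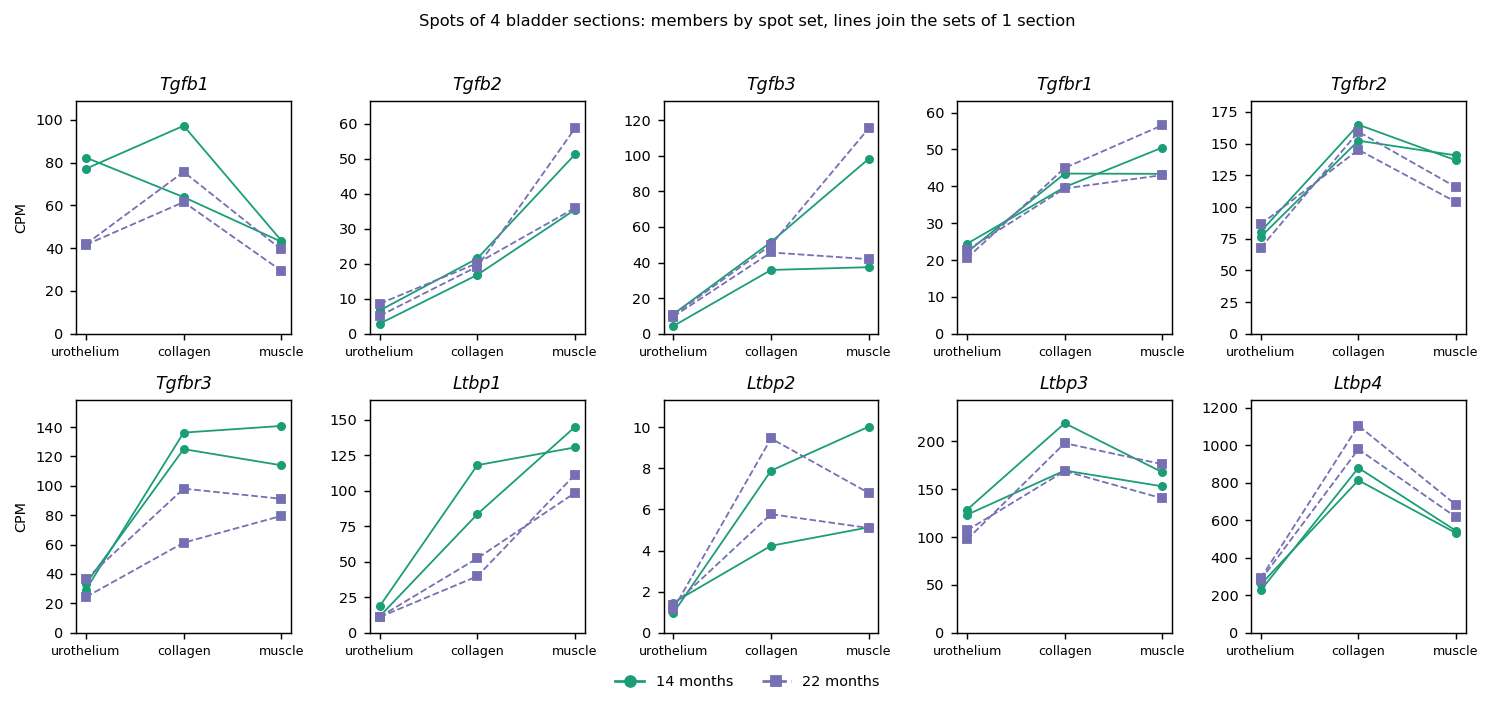
CPM of each gene in urothelium-rich, collagen-rich and muscle-rich spots, with lines joining the sets of 1 section (14 months solid, 22 months dashed). Tgfb2 and Ltbp1 climb toward muscle in all 4 sections, Ltbp4 peaks in collagen-rich spots in all 4, and Tgfb1 is lowest in muscle-rich spots in all 4.

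Of the pathway genes 28 could be tested in spots. The collagen genes defined a set and were left out, and Fbn2, at most 0.652 CPM in any set, was too low. In muscle-rich against urothelium-rich spots 14 were higher, 4 lower and 10 did not pass, beside 72% of all genes that passed. Postn (4.28 ± 0.22), Fn1 (2.88 ± 0.11), the fibronectin gene, and Ctgf (2.55 ± 0.52) were higher, and Itgb6 (-3.31 ± 0.23), Smad2 (-2.12 ± 0.13) and Bambi (-1.54 ± 0.20) lower. In collagen-rich against muscle-rich spots 9 were higher, 5 lower and 14 did not pass, beside 37.9% of all genes that passed. Postn (-1.52 ± 0.20) and Fn1 (-1.12 ± 0.11) were lower there, and Bambi (1.02 ± 0.22), Lrrc32 (0.94 ± 0.11), Tgfbi (0.87 ± 0.20) and Smad2 (0.68 ± 0.15) higher. Adjusted p-values of all named genes were at or under 0.00519 (edgeR).

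Dissociation of the bladder left most of the family higher in bulk RNA. Of the 10 genes 7 differed between dissociated and intact bladder, 6 higher and 1 lower in dissociated samples, against 59.2% of all genes (27.9% higher, 31.3% lower). The median log2 fold change was 0.62 over the 10 genes and -0.03 over all (edgeR, 3 against 3). The same 7 had no overlap between groups in CPM, beside 69.8% of 15020 genes with a mean of at least 1 CPM. In bulk samples, fewer cells of a type and less RNA per cell cannot be told apart.

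Tgfb1 was at 26.0, 22.9 and 26.1 CPM in intact bladders (25.01 ± 1.85, SD, n = 3) and 48.3, 52.3 and 56.9 CPM in dissociated ones (52.5 ± 4.30), a difference of 1.18 ± 0.10 (SE, adjusted p = 4.99e-05). Tgfb3 was at 58.4, 49.7 and 60.8 CPM intact and 104.2, 89.2 and 72.5 CPM dissociated (0.77 ± 0.14, adjusted p = 0.00224). Tgfb2 was at 39.9, 33.2 and 47.2 CPM intact and 31.2, 38.4 and 26.1 CPM dissociated. The groups overlapped and it did not pass (-0.22 ± 0.16, adjusted p = 0.279). Tgfb1 and Tgfb3 thus rose and Tgfb2 had no called change.

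Each receptor was higher after dissociation. Tgfbr1 was at 79.9, 91.4 and 72.2 CPM intact and 116, 130.1 and 151 CPM dissociated (0.81 ± 0.13, adjusted p = 0.00113). Tgfbr2 was at 308, 279 and 319 CPM against 491, 438 and 387 CPM (0.65 ± 0.11, adjusted p = 0.00154). Tgfbr3 was at 149, 144 and 151 CPM against 211, 180.2 and 152 CPM, a narrow separation (0.40 ± 0.12, adjusted p = 0.0193). Its call was lost without any 1 of the intact libraries (adjusted p = 0.0547 to 0.0634) and with scaling by library size only (0.29, adjusted p = 0.0637).

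Ltbp4 and Ltbp1 moved in opposite directions. Ltbp4 was at 385, 283 and 338 CPM intact and 826, 617 and 582 CPM dissociated (1.12 ± 0.17, adjusted p = 0.000934). Ltbp1 was at 134, 124 and 123 CPM intact and 95.03, 90.0 and 64.9 CPM dissociated, the only gene of the 10 that passed as lower (-0.50 ± 0.14, adjusted p = 0.0138). Ltbp2 (0.59 ± 0.24, adjusted p = 0.0675) and Ltbp3 (0.26 ± 0.14, adjusted p = 0.135) overlapped between groups and did not pass. The Ltbp2 call was gained without the third dissociated library (0.79, adjusted p = 0.0133), with DESeq2 (0.63, adjusted p = 0.0261) and with DESeq2's size factors in edgeR (0.63, adjusted p = 0.0489). Both Ltbp2 and Ltbp3 were called with the replicate number as a block, given with the alternative runs below.

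Marker lists also differed between intact and dissociated bladders. The 10 smooth muscle markers summed to 46598 to 48587 CPM in intact and 2583 to 3843 CPM in dissociated bladders. The 12 fibroblast markers summed to 18313 to 22241 CPM and 35232 to 51004 CPM. The 7 lymphatic markers stood at 154 to 189 CPM and 363 to 391 CPM, the 11 macrophage markers at 878 to 985 CPM and 1051 to 1439 CPM, and the 30 dissociation-response genes at 853 to 1102 CPM and 22577 to 26843 CPM. Blood endothelial markers stood at 521 to 590 CPM intact and 851 to 1012 CPM dissociated, and dendritic markers at 227 to 310 CPM and 464 to 734 CPM. Lower after dissociation were mesothelial markers (362 to 442 and 197 to 313 CPM) and pericyte markers (867 to 917 and 583 to 675 CPM). The 16 urothelial markers overlapped between groups (8568 to 9951 and 7462 to 11510 CPM). The part of cell makeup or of the dissociation response in the differences of the 10 genes was not tested.

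**Figure D4:**
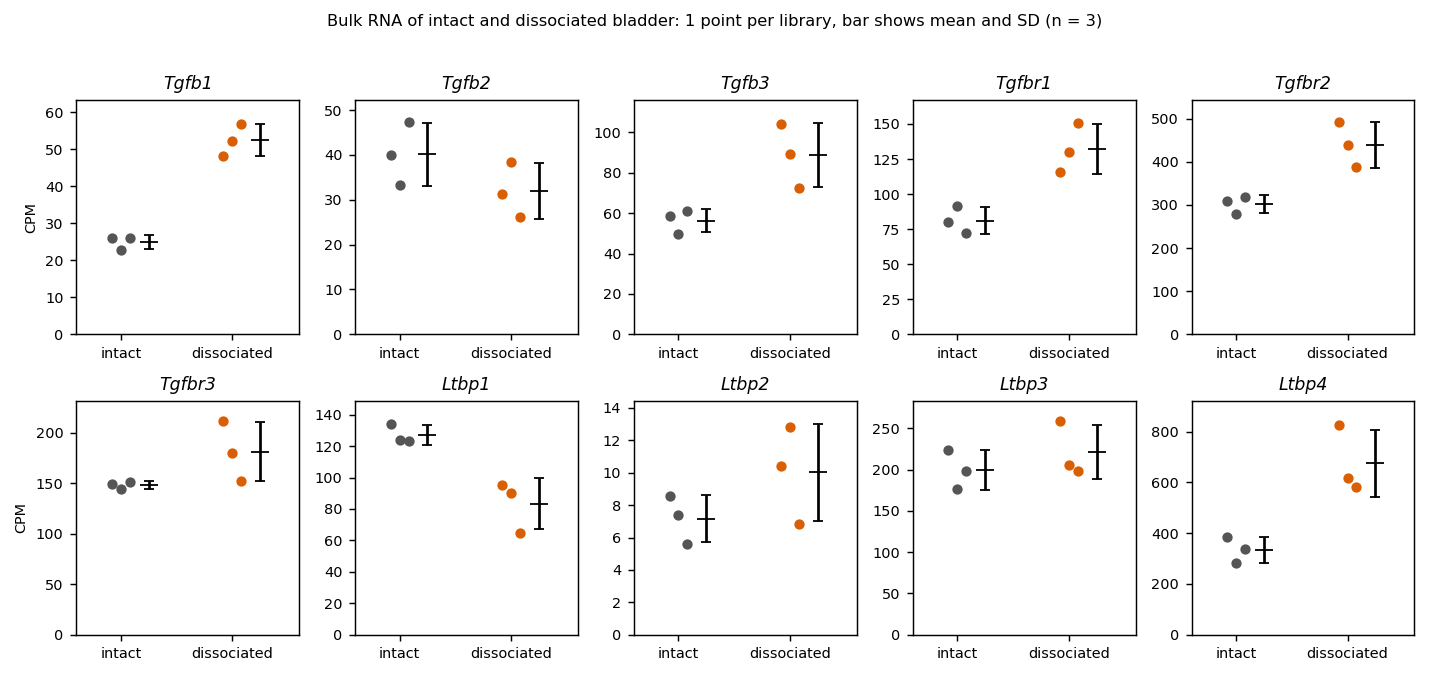
CPM in 3 libraries of intact and 3 libraries of dissociated bladder, 1 point per library, with the mean and SD (n = 3) beside each group. Tgfb1, Tgfb3, the 3 receptors and Ltbp4 lie higher without overlap in dissociated samples, Ltbp1 lies lower, and Tgfb2, Ltbp2 and Ltbp3 overlap.

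Most pathway genes were also higher after dissociation. Of 31 tested, 24 were higher, 2 lower and 5 did not pass, with a median of 0.93, beside 59.2% of all genes that passed (27.9% higher) and a median of -0.03. Thbs1, which can activate latent TGF-beta, rose by 3.66 ± 0.29, the repressor gene Skil by 3.00 ± 0.12, Timp1 by 2.72 ± 0.13, the integrin gene Itgb8 by 1.83 ± 0.21 and Smad7 by 1.82 ± 0.16. Their adjusted p-values lay between 1.8e-06 and 0.000266.

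**Figure D5:**
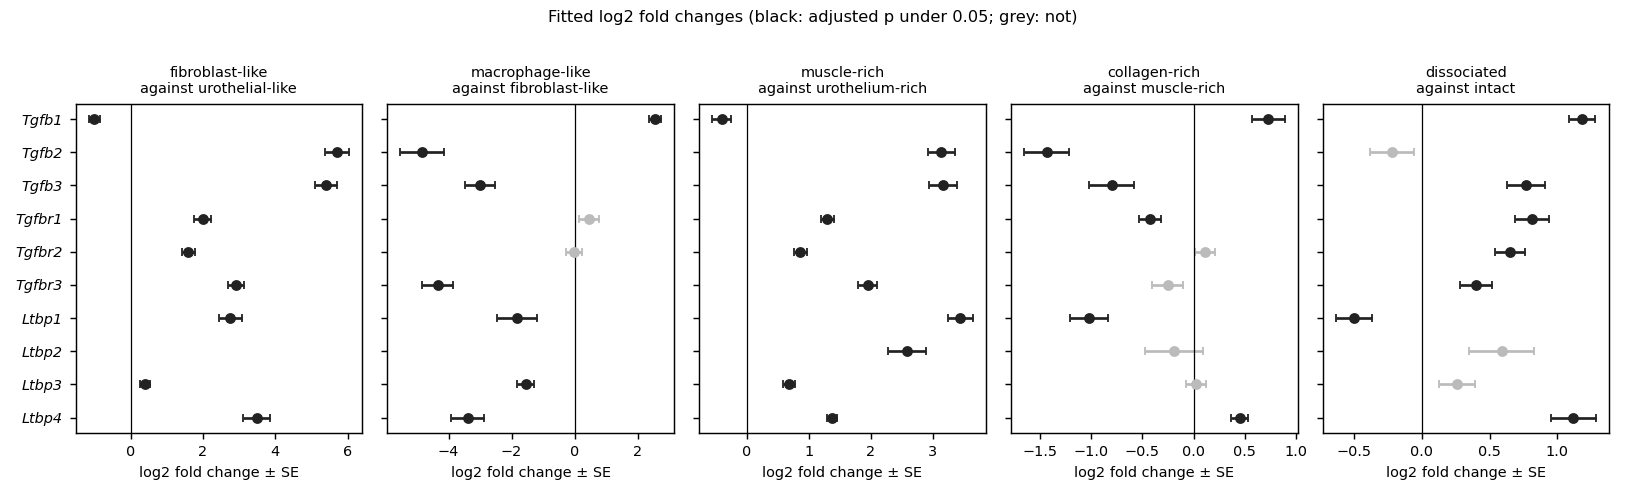
Log2 fold change with its standard error for each gene in 5 comparisons, black where the edgeR adjusted p was under 0.05 and grey where it was not. The Tgfb1 point lies on the other side of 0 from the Tgfb2 and Ltbp1 points in all 5, although Tgfb2 did not pass in bulk.

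With the main edgeR settings no age difference passed for any of the 10 genes, while DESeq2 called 2 of them between sections. Older libraries (22 and 24 months) were compared with younger ones (3 and 12 months) in fibroblast-like and urothelial-like cells with sex mix as a term, and 0% of all genes passed in either class. None of the 10 genes in fibroblast-like cells and 1 of the 9 tested in urothelial-like cells had an unadjusted p under 0.05 (edgeR). DESeq2 called none of the 10 genes in these cell classes. The 1 gene was Tgfb2 in urothelial-like cells (1.78 ± 0.60, unadjusted p = 0.017), at 0.162 to 1.71 CPM. Over all genes 242 of 11688 in fibroblast-like and 366 of 12619 in urothelial-like cells had an unadjusted p under 0.05, and DESeq2 called 1 and 0 genes. In fibroblast-like cells the fold changes of the 10 genes lay between -0.34 ± 0.25 (Tgfb1) and 0.30 ± 0.39 (Ltbp1). The class lacked the unnamed Car3 cluster in the 22-month library, while the other whole-bladder libraries kept their Car3 or Rbp4 clusters. With unnamed fibroblast clusters added, none of the 10 genes was called either. None of the 30 and 29 pathway genes tested passed.

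Between sections of 22 months and 14 months no gene passed either (0% of 14974 genes with edgeR; 2481 with an unadjusted p under 0.05; 420 called by DESeq2). Ltbp1 was at 67.4 and 62.1 CPM over all spots at 14 months and 38.5 and 36.2 CPM at 22 months, without overlap (-0.73 ± 0.09, adjusted p = 0.0793). Tgfb1 was at 70.9 and 76.97 CPM and at 45.8 and 51.3 CPM (-0.54 ± 0.10, adjusted p = 0.126). DESeq2 called these 2 genes of the 10 (adjusted p = 6.39e-05 and 0.0146), as did edgeR with no filter on low counts (adjusted p = 0.0054 and 0.0265). Tgfbr3 (-0.44 ± 0.17) and Ltbp4 (0.31 ± 0.11) had an unadjusted p under 0.05 and did not pass. The dissociation-response genes summed to 5264 and 2492 CPM in the 14-month and 1392 and 940.3 CPM in the 22-month sections, and their part in the section values was not tested. None of the 31 pathway genes passed.

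Likeness to other genes was measured over the means of 8 whole-bladder cell classes on the log2(CPM + 1) scale among 11670 genes, by Pearson's r as a description with no p. The classes share libraries, and the lymphatic mean rests on 2 shallow libraries. Tgfb1 was most like Riok3 (0.95), Kctd12 (0.94) and Cbl (0.94), each highest in lymphatic-like cells. Tgfb3 was most like Cdh11 (0.98), Meg3 (0.97) and Ogn (0.97), and Tgfb2 like Prss23 (0.99), Tns2 (0.99) and Zfp771 (0.996). The receptors were most like Prkar1b (0.91), Axl (0.90) and Fn1 (0.89) for Tgfbr1, Hars (0.98) and Rbms1 (0.97) for Tgfbr2, and Fermt2, Meis2 and Oscp1 (0.99, 0.99 and 0.98) for Tgfbr3. Ltbp1 was most like Ski (0.99), a repressor of Smad signalling, Tmem218 (0.99) and Crtap (0.99). Ltbp3 was most like Esf1, Col4a6 and Wfs1 (0.97, 0.97 and 0.95), and Ltbp4 like Tpd52l2, Zfp771 and Nov (0.99 each). Ltbp2 stayed under 10 CPM in every class and was not compared.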

How the data were processed

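The authors deposited UMI counts per gene and barcode for 8 droplet libraries and 4 spatial sections, and read counts per gene for 6 bulk libraries. The submitters' processing notes name bcl2fastq, Cell Ranger, Space Ranger, Subread, featureCounts and the build mm10; how strand was used in counting is not given in the sources used here. No column of per-sample values was left out.

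Barcodes under 500 UMIs or over 20% mitochondrial UMIs were dropped, and simulated-doublet scores removed 0.8% per 1000 barcodes. Each library was clustered (scanpy 1.11.5, 2000 variable genes without the members and pathway genes, 30 principal components, 15 neighbours, Leiden resolution 1). Clusters were named from marker lists needing 3 detected markers; the scoring rule was set after clusters were seen. UMIs were summed per library and class (50 cells for a test, 20 for a level) or spot set, and the genes of the spot lists were left out of the spot tests. Tests used edgeR 4.0.16 (R 4.3.3, quasi-likelihood, TMM, filterByExpr, two-sided, Benjamini-Hochberg over all genes, threshold 0.05), with DESeq2 1.42.0, other scalings and filters, and left-out libraries as alternatives. On simulated data for the bulk comparison 98% of 200 genes changed 4-fold were recovered, and for the macrophage-like, fibroblast nuclei and urothelial nuclei comparisons 77.5%, 35.5% and 61%. The simulation gave every gene the same dispersion and libraries no difference but size. It therefore cannot give the recovery of smaller changes in the real data. Intervals are exact Poisson 95% intervals, and they and floors of 3 counts cover counting error only.

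All 10 members were named in each comparison. Pathway genes were named when among the 6 largest absolute fold changes past the threshold with a mean of at least 10 CPM, and likeness took the 3 highest r. Some genes that these rules pick are not reported here. The members and lists were chosen with earlier results of these data known. Promoters are RefSeq's, on GRCm38.p6, matched by symbol.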

Additional observations from a re-analysis of the deposited data

Results flagged for a closer look

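Of 77 sets of 4 to 10 samples examined for a sample far from the others, 5 had one, and chance gives about 1 in 20. Each was found by Dixon's gap ratio. Tgfbr3 in fibroblast-like cells was at 99.8 CPM in the second 12-month library, while the other 4 libraries lay at 74.2 to 81.5 CPM. Tgfbr1 in urothelial-like cells was at 15.4 CPM in the 22-month library against 11.7 to 12.8 CPM in the others. Tgfbr1 over all spots was at 34.7 CPM in the second 14-month section against 31.6 to 31.9 CPM. Ltbp1 in urothelium-rich spots was at 18.6 CPM in the first 14-month section against 11.001 to 11.48 CPM in the other 3. Tgfb2 in dendritic-like cells was at 0.773 CPM in the 22-month library, which is 1 UMI, and at 0 in the others.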

How the results depend on the processing

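No called value changed direction under any alternative run. The number of the 10 genes called ranged from 6 to 9 for bulk, 8 to 10 for fibroblast-like against urothelial-like cells, 6 to 7 for macrophage-like cells, 9 to 10 and 4 to 6 for the spot comparisons, and was 0 for both age comparisons in cells. For fibroblast-like nuclei it was 5 with library size only and 1 to 2 when 1 whole-bladder library was left out. For urothelial-like nuclei it was 6 with library size only and 1 with doublets kept. For the sections it was 2 with DESeq2, 2 with no filter on low counts, 1 with library size only (Ltbp1) and 0 to 2 when 1 section was left out, the 2 being Ltbp1 and Tgfbr3 without the first 22-month section (adjusted p = 0.0472 and 0.0354). Library size only (for all but the bulk comparison) and the adding of unnamed fibroblast clusters were chosen after seeing the data.

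Scaling by library size only moved the share of calls that were higher from 45.6% to 89.6% in urothelial-like nuclei, from 35.7% to 85.0% in fibroblast-like nuclei (47.0% with DESeq2's size factors), from 45.3% to 20.1% for macrophage-like cells, from 46.0% to 63.9% for fibroblast-like against urothelial-like cells and from 49.6% to 71.7% for collagen-rich spots. Over all genes, calls in fibroblast-like nuclei went from 2887 to 4754 against the mixed-sex libraries only and to 1863 without the first 12-month library, and in urothelial-like nuclei from 4678 to 7350 against the mixed-sex libraries. Collagen-rich spots went from 4713 to 2784 without the first 22-month section. From 0, the sections gained 420 calls with DESeq2, 286 with no filter, 66 with library size only and 256 without the first 22-month section. With no filter the age comparisons gained 11 (fibroblast-like) and 77 (urothelial-like), and they gained 341 without the 24-month and 44 without the first 12-month library, in that order; other left-out libraries or sections gave 0 to 19. The cause of these shifts was not tested.

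With the replicate number as a block, 9 of the 10 genes were called in bulk, Ltbp2 (0.57, adjusted p = 0.0182) and Ltbp3 (0.25, adjusted p = 0.0328) being added. The numbers were not taken as pairing: same-numbered deviations correlated at 0.296, 0.391 and -0.0556, and not every library correlated best with its own number. The blood-endothelial comparison could not be fitted, having fewer than 3 whole-bladder libraries with 50 cells, nor could the macrophage comparison without the 3-month, 22-month or 24-month library or with doublets kept. In collagen-rich spots Tgfb3 was not called with no filter (adjusted p = 0.0836), and with library size only Tgfbr1 was not called (0.0898) and Tgfbr2 was (0.0415). With doublets kept, macrophage-like Tgfbr3 was at 4.87 and Ltbp4 at 49.5 CPM. Lymphatic-like, mesothelial-like, smooth-muscle-like and pericyte-like cells of whole bladder rest on few UMIs, so depth limits their levels.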
